A study of Mus musculus with 54 samples.

Results

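The transcripts of 37 ribosome biogenesis genes were followed through 15 conditions of mouse peritoneal macrophages. The genes were taken from a list of symbols that covers the nucleolar pathway from the synthesis of ribosomal RNA to the late assembly of both subunits. All 37 were found among the 39179 gene identifiers of the count files, and all 37 passed the filter on low counts in both experiments. The macrophages were elicited with thioglycolate in wild-type C57BL/6 mice of 8 to 20 weeks. In the polarization experiment, cells of 3 mice were left unstimulated (M0), were made M1-like with LPS (100 ng/ml) plus IFN-γ (50 ng/ml) or M2-like with IL-4 (10 ng/ml), and were sequenced after 24 h. The reprogramming experiment had 12 groups of 3 replicates. M1-like and M2-like cells were polarized for 24 h, and transfected groups were harvested 48 h after transfection. The harvest time of the untransfected groups is not given in the labels, and they are named with this later harvest below. M0, M1-like and M2-like cells were left untransfected or were mock transfected there, and M2-like cells also received a negative siRNA pool, a single pool against Myc, E2f1, Pparg or Stat6, or a combined pool against these 4 transcripts. All siRNA groups were M2-like cells that were cultured without IL-4 after transfection. The siRNA knockdowns describe transient loss of a transcript and not of a gene. Whether the 3 replicates of a reprogramming group came from separate mice is not given in the labels, so p-values there measure only the spread between these samples. This spread was above sampling noise, with a chi-square per gene of 4.48 to 23.0 between replicates, against 1.07 to 1.1 between technical replicates of 1 sample.

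Ribosome biogenesis starts in the nucleolus, where RNA polymerase I transcribes the ribosomal RNA precursor. Small nucleolar ribonucleoproteins (snoRNPs) methylate (box C/D) or pseudouridylate (box H/ACA) this precursor, and large sets of assembly factors fold and cleave it into the small and the large subunit. Many of these genes are known direct targets of the transcription factor MYC, which binds the E-box CACGTG together with its partner MAX and couples ribosome production to growth. The reprogramming experiment therefore contains a contrast for them, M2-like macrophages with reduced Myc against the same cells with a negative pool. The Myc siRNA was from Dharmacon, and the E2f1, Pparg and Stat6 pools were from siTools Biotech. The paper does not name the source of the negative pool. Loss of Myc and the source of the siRNA cannot be told apart in these groups.

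The libraries held 13421854 to 29880494 counted reads, with a median of 15771782 in the reprogramming experiment and of 48428913 per mouse and condition in the polarization experiment after technical replicates were summed. The 8 macrophage markers were expressed in all conditions, with a sum between 6448 and 18409 CPM (read counts scaled by depth, with TMM library sizes). Markers of B, T, NK, mast and dendritic cells were low, with a highest sum of 33.2 CPM in any library for B cells. Eosinophil markers summed to at most 46.1 CPM and neutrophil markers to 67.4 to 175.8 CPM, and these 2 sums were mostly Siglecf and Csf3r. The 5 markers of fibroblasts and mesothelial cells summed to 4.43 to 29.9 CPM in the polarization experiment and to 17.1 to 390.2 CPM in the reprogramming experiment. The M2-like sample of mouse 1 at 24 h stood apart, with a chi-square per gene of 87.3 and 96.6 from the other M2-like samples, which differed from each other by 5.93. The 2 experiments differ in read type, sequencing site and time, so levels were compared only within each of them.

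The siRNA pools lowered their targets. Myc was at 19.6, 22.3 and 18.5 CPM in the 3 samples with the negative pool, at 8.24, 8.90 and 5.83 CPM with the Myc pool and at 8.58, 8.04 and 7.30 CPM with the combined pool. The groups did not overlap, and Myc fell to 0.383 of the negative pool with the Myc pool (log2 fold change -1.38, SE 0.16, adjusted p = 6.83e-08, edgeR) and to 0.396 with the combined pool (-1.34, SE 0.16, adjusted p = 1.62e-07). The single pools lowered E2f1 by -1.98 (SE 0.12, adjusted p = 1.30e-12), Pparg by -2.19 (SE 0.09, adjusted p = 2.12e-18) and Stat6 by -1.87 (SE 0.10, adjusted p = 3.54e-15) on the log2 scale. In the combined pool the changes of these 3 targets were -0.73, -1.82 and -0.89. Pparg also fell by 0.62 on the log2 scale with the Myc pool (SE 0.08, adjusted p = 6.82e-07).

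Myc followed polarization as well. At 24 h it was at 9.53, 8.93 and 9.03 CPM in M0 macrophages, at 0.513, 0.664 and 0.728 CPM in M1-like and at 18.7, 18.6 and 19.98 CPM in M2-like macrophages, so the 3 conditions did not overlap. In the later harvest the M1-like samples lay between 1.47 and 4.35 CPM and the M2-like samples without siRNA between 20.1 and 23.6 CPM. The summed level of the 37 genes had the same order as Myc at 24 h, but not in the later harvest. At 24 h it was 1598 to 1705 CPM in M2-like, 1270 to 1299 CPM in M0 and 1058 to 1148 CPM in M1-like macrophages. Later it was 1473 to 1492 CPM in M2-like mock and 1554 to 1761 CPM in M1-like mock macrophages. With the negative pool it was 1423 to 1508 CPM, with the Myc pool 1631 to 1709 CPM and with the combined pool 1619 to 1714 CPM.

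**Figure D1:**
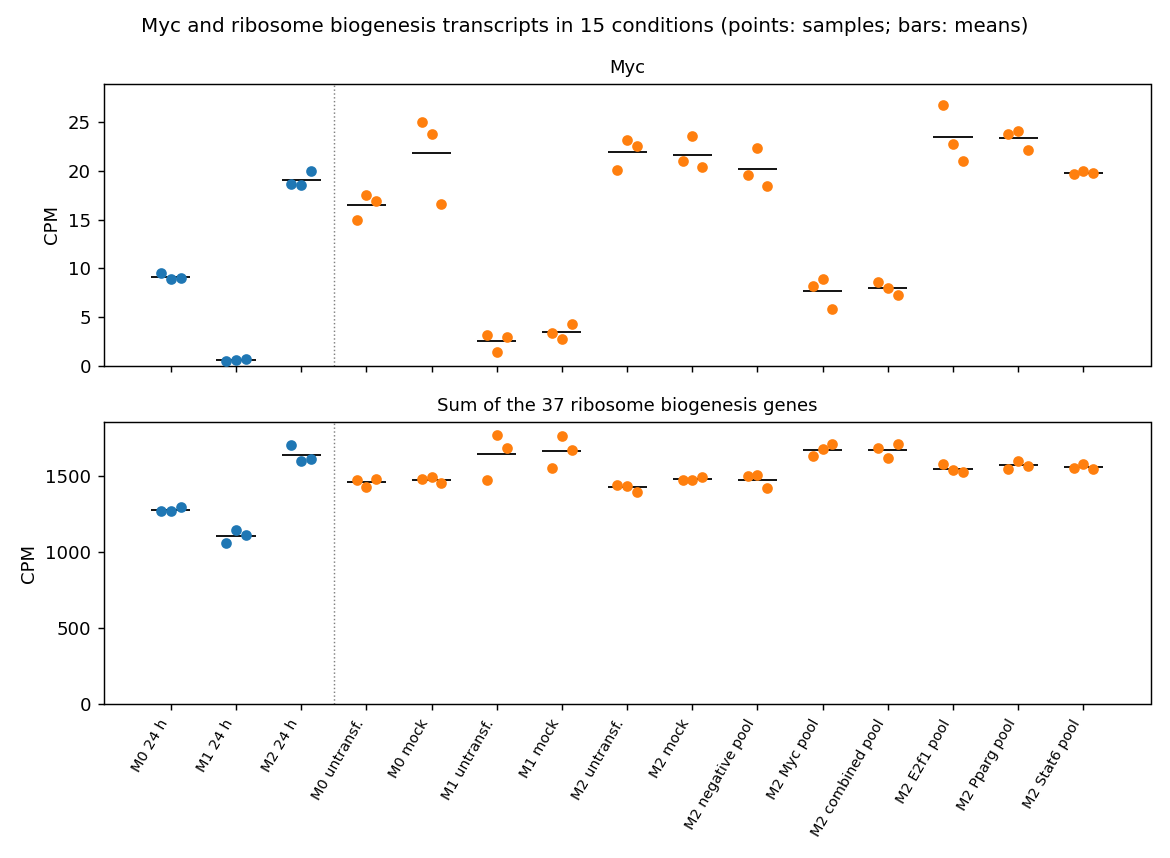
CPM of Myc (upper plot) and summed CPM of the 37 ribosome biogenesis genes (lower plot) in each sample of the 15 conditions, with bars at the means of 3 samples; blue points are the polarization and orange points the reprogramming experiment. Myc is below 10 CPM in M0 and M1-like cells at 24 h, in late M1-like cells and in the Myc and combined pools, while the summed genes are lowest in M1-like cells at 24 h (1058 to 1148 CPM) and reach 1631 to 1709 CPM with the Myc pool.

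Per length, as CPM per kilobase of exon (RPKM), the highest of the 37 genes in M2-like macrophages with the negative pool was Nhp2, a core protein of box H/ACA snoRNPs, with 49.8 ± 2.72 RPKM (SD, n = 3). Noc2l, a large subunit factor, followed with 29.8 ± 3.34 RPKM and did not overlap with Nhp2. The annotated span of Noc2l overlaps that of Samd11 on the opposite strand by 651 bases. Nop10, another H/ACA protein, had 27.1 ± 0.832 RPKM and overlapped with Noc2l. Nucleolin (Ncl), which chaperones nascent ribosomal RNA, had 25.2 ± 0.727 RPKM, below all samples of Nop10. Imp3, a subunit of the Mpp10 complex of the small subunit processome, had 25.0 ± 2.11 RPKM and overlapped with both Nop10 and Ncl. The highest members of the remaining groups were Pes1 of the PeBoW complex (20.1 ± 0.0681), Polr1c, a subunit shared by RNA polymerases I and III (13.6 ± 0.692), and Nop56 of the box C/D snoRNPs (9.42 ± 0.349). Wdr12 (0.993 ± 0.175) and the methyltransferase fibrillarin (Fbl, 1.06 ± 0.297) were the lowest. All these RPKM values divide by the whole annotated exon length of the gene, 10188 bases for Ncl and 1146 for Nhp2. The ranking depends on this length. By CPM Ncl was above Nhp2, with 251.6 to 265.2 and 53.5 to 59.4 CPM in these samples.

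With the Myc pool, ribosome biogenesis transcripts were not lower than with the negative pool. Of the 37 genes, 18 rose, against 13.9% of all genes tested, and 0 fell, against 15.6% of all genes tested. Without adjustment 2 were lower at p under 0.05 in edgeR, and DESeq2 called 0 lower and 18 higher. The median log2 fold change of the 37 was 0.22, with single genes between -0.28 and 0.73, and that of all genes tested was 0.00. In 22 of the 37 genes all samples with the Myc pool were above all samples with the negative pool. The share of all genes tested that were separated in this way is not given here, so this count only describes these samples. The rises were small, 1.14- to 1.66-fold.

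The largest rise was that of Bysl (bystin), a factor of late small subunit maturation. Its transcript was at 14.0, 14.9 and 14.1 CPM with the negative pool and at 21.4, 25.3 and 24.6 CPM with the Myc pool, without overlap (log2 fold change 0.73, SE 0.11, adjusted p = 5.78e-06). Wdr74, which acts in the assembly of the large subunit, was at 23.4, 22.5 and 21.9 CPM with the negative pool and at 35.97, 36.7 and 38.8 CPM with the Myc pool (0.72, SE 0.08, adjusted p = 3.45e-08). In both genes the lowest sample with the Myc pool was well above the highest with the negative pool.

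Other small subunit factors rose too. Rrp9, a protein of the U3 snoRNP, went from 17.8, 17.8 and 14.6 CPM to 24.2, 24.8 and 25.2 CPM (log2 fold change 0.57, SE 0.12, adjusted p = 6.42e-04). Rrp12, which takes part in small subunit maturation and export, went from 15.9, 20.2 and 18.5 CPM to 24.4, 24.8 and 29.8 CPM (0.53, SE 0.11, adjusted p = 4.03e-04). Of the 11 small subunit factors 8 rose, namely Bysl, Rrp9, Rrp12, Imp3 (0.38), Nop14 (0.35), Noc4l (0.27), Utp20 (0.23) and Wdr43 (0.21). The other 3, Heatr1 (0.21), Imp4 (0.09) and Tsr1 (0.08), had positive values that did not pass the test. The annotated spans of Bysl, Rrp9 and Nop14 overlap genes on the opposite strand, Ccnd3 (361 bases), Parp3 (987 bases) and Gm15522 (1760 bases). Overlap of exons was not computed. Whether the counting used strand is not given in the sources used here. Ccnd3 had a log2 fold change of 0.03 (adjusted p = 0.909) in this comparison and Parp3 rose by 0.65 (adjusted p = 2.06e-04). The part of such reads in the values of Bysl, Rrp9 and Nop14 was not tested.

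Among the 9 large subunit factors, Wdr74, Nip7, Rrs1 and Mrto4 rose. Nip7, which is needed for the processing of large subunit precursors, was at 30.4, 29.6 and 25.7 CPM with the negative pool and at 38.3, 40.9 and 41.1 CPM with the Myc pool (log2 fold change 0.49, SE 0.09, adjusted p = 4.83e-05). Rrs1, which helps to bring the 5S ribonucleoprotein into the large subunit, was at 41.6, 38.8 and 37.8 CPM and at 50.3, 54.4 and 57.8 CPM in these groups (0.46, SE 0.10, adjusted p = 0.00108). Neither gene had overlapping samples. Mrto4 rose by 0.28, and Nop2, Gnl3 (nucleostemin), Ppan, Noc2l and Nop16 had values between 0.04 and 0.23 that did not pass. Of the PeBoW complex, which acts in the processing of the large subunit RNA, Pes1 rose by 0.19 (SE 0.07, adjusted p = 0.0458), while Bop1 was at 0.08 and Wdr12 at 0.04. The call of Pes1 was kept in 8 of 14 alternatives. Its annotated span overlaps that of 4930556J24Rik on the opposite strand by 12804 bases, and the part of such reads was not tested.

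The box H/ACA snoRNP was split. Nop10 went from 30.7, 30.5 and 29.0 CPM with the negative pool to 37.5, 46.5 and 52.7 CPM with the Myc pool (log2 fold change 0.60, SE 0.12, adjusted p = 2.22e-04). Gar1 went from 9.87, 9.47 and 11.3 CPM to 11.6, 15.2 and 14.8 CPM (0.44, SE 0.16, adjusted p = 0.0324), and Nhp2 rose by 0.40 (SE 0.11, adjusted p = 0.00582). Dkc1, the pseudouridine synthase of the same particle, was at 10.4, 11.3 and 9.55 CPM with the negative pool and at 9.23, 7.42 and 9.12 CPM with the Myc pool, lower in all samples but not past the test (-0.28, SE 0.13, adjusted p = 0.123).

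The values of Gar1 and Nop10 depended on the control. M2-like mock samples held 15.4, 12.8 and 16.3 CPM of Gar1 and 44.4, 40.2 and 49.8 CPM of Nop10, above all samples with the negative pool. Against M2-like mock cells the Myc pool gave a log2 fold change of -0.10 for Gar1 and of 0.02 for Nop10, neither past the test, and Nhp2 (0.20), Imp3 (0.12) and Utp20 (0.14) lost their calls as well. Bysl (0.57), Wdr74 (0.45), Rrp9 (0.52), Rrp12 (0.51), Nip7 (0.50) and Rrs1 (0.46) kept theirs. Against mock cells 19 of the 37 genes rose, against 19.8% of all genes tested, and 0 fell, against 18.9%, and 13 of these rises were the same genes as with the negative pool as the control.

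Among the nucleolar chaperones and helicases, 1 of 4 passed the test. Ncl was at 265.2, 251.6 and 253.3 CPM with the negative pool and at 239, 240 and 226 CPM with the Myc pool (log2 fold change -0.13, SE 0.07, adjusted p = 0.17). Nucleophosmin (Npm1) was at 38.8, 43.6 and 34.7 CPM and at 33.9, 32.0 and 32.4 CPM (-0.25, SE 0.12, adjusted p = 0.108). In both genes all samples with the Myc pool were lower, but neither passed the test. Nolc1, a chaperone of snoRNPs, rose by 0.35 (SE 0.11, adjusted p = 0.0132), and the RNA helicase Ddx21 was at 0.05. The 3 box C/D proteins gave no call, with Fbl at 0.31 (SE 0.29, adjusted p = 0.437), Nop56 at 0.11 and Nop58 at -0.06. Of the polymerase I subunits Polr1c rose by 0.32 (SE 0.08, adjusted p = 0.00300), and the catalytic subunits Polr1a (0.05) and Polr1b (0.06) did not pass.

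With the combined pool 15 of the 37 genes rose, against 12.5% of all genes tested, and 0 fell, against 13.9% of all genes tested. edgeR gave 0 lower genes at an unadjusted p under 0.05 as well, and DESeq2 called 0 lower and 14 higher. The median log2 fold change was 0.22, as with the Myc pool, and both comparisons share the samples with the negative pool. Bysl was at 19.0, 20.6 and 23.4 CPM with the combined pool (log2 fold change 0.56, SE 0.11, adjusted p = 2.90e-04), Wdr74 at 34.5, 33.5 and 34.2 CPM (0.59, SE 0.08, adjusted p = 1.09e-06) and Rrp9 at 29.4, 21.8 and 25.9 CPM (0.62, SE 0.12, adjusted p = 2.66e-04). All 3 were above each sample with the negative pool. Rrp12 (0.56), Nop10 (0.61), Nip7 (0.52), Rrs1 (0.41) and Nop14 (0.32) rose too, and Gar1 (0.40, adjusted p = 0.0568) and Dkc1 (-0.18, adjusted p = 0.354) did not pass. Compared directly, the combined pool and the Myc pool differed in 0 of the 37 genes in either direction in edgeR, also at an unadjusted p under 0.05, and in 0 by DESeq2. The single differences lay between -0.17 (Bysl) and 0.20 (Npm1), and the lowest and highest bounds of their 95% intervals (from the SE) were -0.54 and 0.54. Of all genes tested 0.0494% were lower and 0.00% higher in this direct comparison.

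The single pools against E2f1, Pparg and Stat6 moved fewer of these genes. The E2f1 pool raised 1 of 37, Wdr74 (0.34, SE 0.08, adjusted p = 0.0315), against 0.261% of all genes higher and 0.649% lower. The Pparg pool raised Wdr74 (0.45, SE 0.08, adjusted p = 3.65e-04) and Bysl (0.45, SE 0.11, adjusted p = 0.0119), against 2.71% of all genes higher and 3.03% lower. The Stat6 pool raised Wdr74 (0.35, SE 0.08, adjusted p = 0.0154), against 0.466% of all genes higher and 1.04% lower. No gene fell in these 3 comparisons in edgeR or DESeq2, with 0, 0 and 1 lower at an unadjusted p under 0.05. Wdr74 was called higher with each of the 5 targeting pools, all against the same negative pool, in which it was 0.833 of the mock level. The call of the E2f1 pool was lost without any 1 of its 6 libraries. That of the Stat6 pool was lost without replicate 1 or 3 of the Stat6 pool or replicate 2 or 3 of the negative pool. The Pparg pool gave 1 call without its replicate 3 or without replicate 1 or 3 of the negative pool.

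The Myc pool was also compared with the mean of the other 3 single pools, which does not use the negative pool. Of the 37 genes 16 were higher, against 15.7% of all genes tested, and 2 were lower, against 17.0%. The Myc siRNA had another supplier than these 3 pools, so supplier and target cannot be told apart here. The largest differences were those of Rrs1 (log2 fold change 0.41, SE 0.08, adjusted p = 2.96e-04), Nop10 (0.38), Bysl (0.37), Nip7 (0.36), Rrp12 (0.34) and Wdr74 (0.34). The lower genes were Ncl (-0.15, SE 0.06, adjusted p = 0.0446) and Npm1 (-0.25, SE 0.10, adjusted p = 0.0464). Without the third replicate of the Myc pool 7 genes were higher and 0 lower, and with total counts as library sizes the split was 24 higher and 0 lower.

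**Figure D2:**
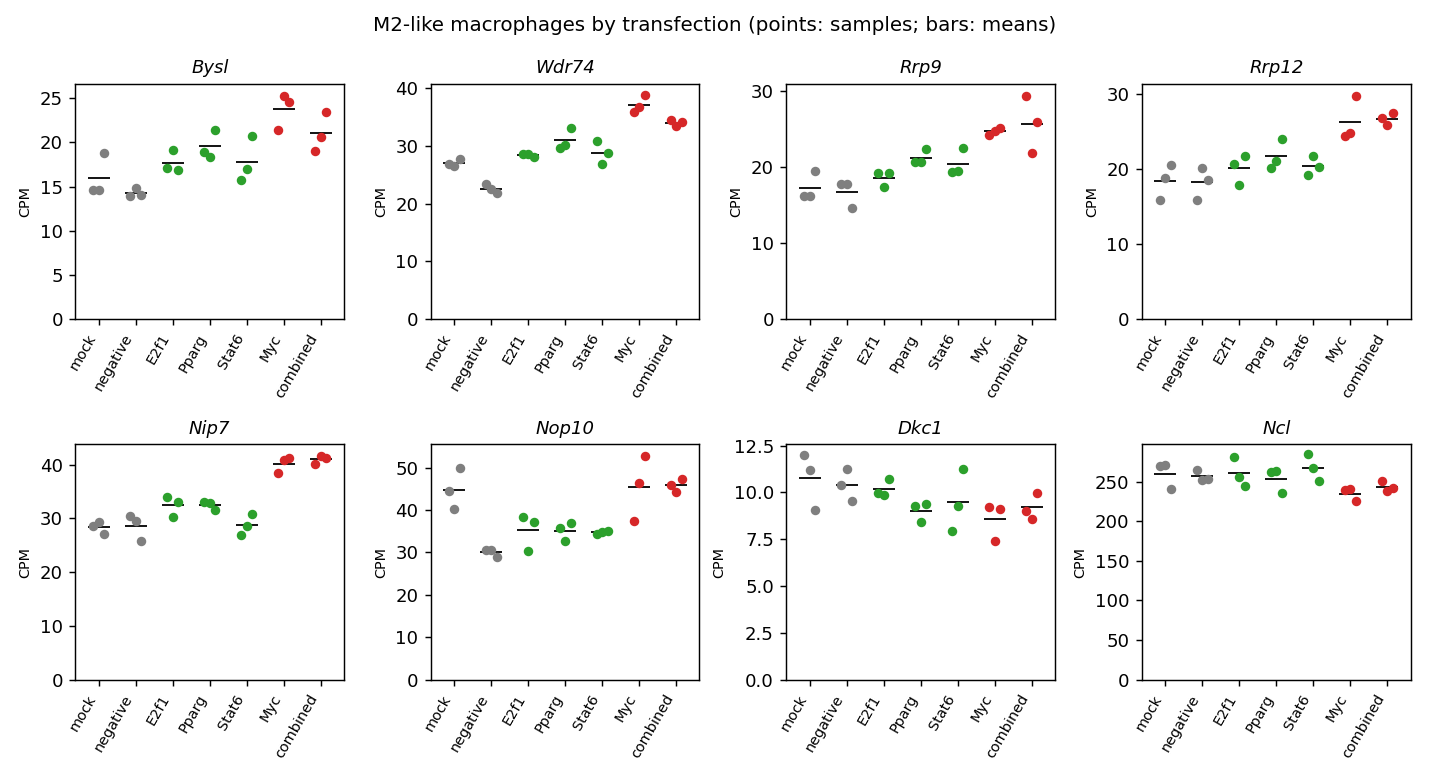
CPM of 8 ribosome biogenesis genes in M2-like macrophages, with mock and negative pool samples in grey, the single pools against E2f1, Pparg and Stat6 in green and the Myc and combined pools in red; bars are means of 3 samples. Bysl, Wdr74, Rrp9, Rrp12 and Nip7 have their highest means in the red groups, Nop10 is as high in mock cells (40.2 to 49.8 CPM) as in the red groups, and Dkc1 and Ncl are not raised.

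The negative pool itself moved 4 of the 37 genes against M2-like mock cells. Gar1 (log2 fold change -0.54, SE 0.16, adjusted p = 0.0217), Nop10 (-0.58, SE 0.12, adjusted p = 9.84e-04) and Wdr74 (-0.26, SE 0.08, adjusted p = 0.0288) were lower, against 5.03% of all genes, and Wdr43, a factor of the small subunit processome, was higher (0.23, SE 0.08, adjusted p = 0.0436), against 6.67% of all genes. Without replicate 1 of the mock samples or replicate 2 of the negative pool 1 call was left, and without mock replicate 3 or negative pool replicate 1 or 3 there were 2. With total counts as library sizes the split was 2 lower and 2 higher. Mock transfection gave 0 calls in M1-like cells in edgeR, at an unadjusted p under 0.05 and in DESeq2, against 0.00% of all genes in either direction. In M2-like cells it gave 0 calls in edgeR and DESeq2, with 1 lower and 2 higher genes at an unadjusted p under 0.05, against 0.0988% of all genes lower and 1.67% higher. In M0 cells it lowered Bysl (-0.31), against 8.66% of all genes, and raised Gnl3 (0.48), Nop56 (0.26) and Mrto4 (0.26), against 11.7% of all genes. This gave 2 calls without any 1 of the 6 libraries other than M0 mock replicate 3, and 2 lower and 1 higher with total counts as library sizes.

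Of the 37 genes 32 had at least 1 promoter window in RefSeq (GRCm38.p6), reaching from 250 bases before to 50 bases after the annotated start. The letters CACGTG, which read the same on both strands, were found in the windows of 6 of these 32 genes (18.8%), compared with 11.7% of the protein-coding genes tested in the reprogramming experiment and with 8.09% of all genes with a window of this length. The 6 sites are shown because Myc binds these letters. The motif is in capitals, with up to 12 bases on each side on the strand of the gene.
Imp4, chr1:34439696-34439725, plus strand: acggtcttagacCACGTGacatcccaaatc
Nop2, chr6:125131811-125131840, plus strand: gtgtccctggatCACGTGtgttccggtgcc
Utp20, chr10:88826765-88826789, minus strand: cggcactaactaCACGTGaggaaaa
Pes1, chr11:3963965-3963994, plus strand: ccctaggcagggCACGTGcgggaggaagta
Tsr1, chr11:74898092-74898121, plus strand: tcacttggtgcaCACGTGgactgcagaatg
Wdr43, chr17:71616220-71616249, plus strand: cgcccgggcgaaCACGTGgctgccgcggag

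The motif starts 121 bases before the start of Imp4 and 60 bases before that of Nop2, and at base 38, 3, 25 and 18 of the transcribed part in Utp20, Pes1, Tsr1 and Wdr43. With the Myc pool Utp20, Pes1 and Wdr43 rose, and Imp4, Nop2 and Tsr1 did not pass the test. The 6 genes with the motif had a median log2 fold change of 0.20 and the 26 genes without it of 0.24, with 3 and 13 rises. None of the 8 largest rises with the Myc pool (Bysl, Wdr74, Nop10, Rrp9, Rrp12, Nip7, Rrs1 and Gar1) had the letters in a window given here, and no window was given for Rrp12 and Rrs1. A match describes the letters of this window only.

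Another shared feature is the presence of snoRNA genes within the gene. In GENCODE M21, 8 of the 37 genes (Nop56, Nop58, Dkc1, Ncl, Wdr43, Tsr1, Ppan and Gnl3) hold an annotated snoRNA on the same strand. With the Myc pool 1 of these 8 rose (Wdr43) and their median log2 fold change was 0.10, while 17 of the other 29 rose with a median of 0.28. At 24 h in M2-like against M0 macrophages 7 of the 8 rose with a median of 0.53, and 17 of the other 29 with a median of 0.29. This grouping was made after the values were seen, and no test was run on it.

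At 24 h the direction between M1-like and M2-like macrophages was clear. M1-like cells had lower levels of 33 of the 37, against 38.1% of all genes tested, and 2 were higher, against 34.6%. The median log2 fold change was -0.64, while that of all genes tested was -0.06. Dkc1 was at 5.16, 4.90 and 5.70 CPM in M1-like and at 20.1, 15.8 and 15.1 CPM in M2-like macrophages, the largest fall of the 37 (-1.69, SE 0.11, adjusted p = 5.53e-08). Ppan, a large subunit factor, was at 6.16, 6.82 and 6.89 CPM and at 13.8, 18.1 and 20.1 CPM (-1.39, SE 0.12, adjusted p = 7.26e-07). M1-like samples were below all M2-like samples in both genes and in 32 of the 37, and the share of all genes tested with this separation is not given here. Without the M2-like sample of mouse 1, 33 genes were lower and 1 higher, the median was -0.67 and Dkc1 was at -1.55. Marker sums moved in this comparison. In M1-like and M2-like cells the macrophage markers summed to 10392 to 11385 and 12729 to 13060 CPM, and most of each sum was Lyz2. The single macrophage markers were split. Adgre1 (1374 to 1553 and 342 to 409 CPM), Mertk (603 to 633 and 71.4 to 79.7 CPM), Fcgr1 and Cd14 were higher in M1-like cells. Lyz2, Cd68, Csf1r and Itgam were lower. The fibroblast and mesothelial markers summed to 4.43 to 6.72 and 14.2 to 18.2 CPM in M1-like and M2-like cells. The neutrophil markers summed to 149 to 175.8 and 67.4 to 73.5 CPM and the eosinophil markers to 0.271 to 0.817 and 14.1 to 19.1 CPM. Of the neutrophil and eosinophil genes, S100a9, Prg2 and Epx were at 0 in all these M1-like and M2-like samples. Ly6g was at 0.459, 0.255 and 0.562 CPM in M1-like and at 0 in M2-like cells. S100a8 was at 9.09 to 13.4 CPM in M1-like and at 5.62 to 6.8 CPM in M2-like cells. Csf3r was also higher in M1-like cells, and Siglecf and Ccr3 were lower. The part of other cells in the result was not tested.

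All 4 box H/ACA proteins, all 3 box C/D proteins, all 4 chaperones and helicases, all 3 PeBoW proteins and all 9 large subunit factors had fallen in M1-like relative to M2-like cells at 24 h. Gar1 fell by 1.38, Wdr12 by 1.37, Gnl3 by 1.21, Nop58 by 1.18 and Rrs1 by 1.16 on the log2 scale. Polr1b, the second catalytic subunit of RNA polymerase I, was at 8.05, 8.96 and 7.76 CPM in M1-like and at 17.97, 20.04 and 18.7 CPM in M2-like cells (log2 fold change -1.20, SE 0.08, adjusted p = 3.26e-08). The exceptions were Noc4l and Polr1c, which were higher, and Wdr43 (-0.11, adjusted p = 0.169) and Imp4 (-0.11, adjusted p = 0.167), which did not pass.

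Noc4l, a small subunit factor that pairs with Nop14, stood apart. It was at 42.8, 40.7 and 40.5 CPM in M1-like, at 12.8, 14.9 and 16.3 CPM in M2-like and at 14.8, 14.3 and 14.0 CPM in M0 macrophages. M1-like samples were 2.81-fold above M2-like samples (log2 fold change 1.49, SE 0.08, adjusted p = 7.62e-09) and 2.88-fold above M0 samples (1.53, SE 0.08, adjusted p = 6.00e-09). Its partner Nop14 was lower in M1-like cells (-0.24, SE 0.07, adjusted p = 0.0133). Polr1c was at 22.5, 22.4 and 23.3 CPM in M1-like and at 15.5, 21.5 and 19.9 CPM in M2-like cells (0.26, SE 0.10, adjusted p = 0.0362), and with total counts as library sizes its value was -0.18.

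Both polarized states moved away from M0. In M2-like against M0 macrophages 24 of the 37 genes rose, against 13.5% of all genes tested, and 0 fell, against 14.4%, with 0 lower at an unadjusted p under 0.05 and 0 by DESeq2. The median was 0.36, and the largest rises were those of Nop58 (log2 fold change 0.73, SE 0.11, adjusted p = 4.27e-04), Rrs1 (0.71, SE 0.08, adjusted p = 1.14e-04) and Dkc1 (0.70, SE 0.11, adjusted p = 6.00e-04). Without the M2-like sample of mouse 1, 30 genes rose, and these 3 had values of 0.65, 0.75 and 0.57. In M1-like against M0 macrophages 23 fell, against 37.5% of all genes tested, and 2 rose, Noc4l and Wdr43 (0.29), against 35.4%. The largest falls were those of Ppan (-1.07), Polr1b (-1.03) and Dkc1 (-0.98), and the median was -0.30. The comparisons share the M0 samples. With total counts as library sizes the median of all genes fell by 0.465 in M1-like against M0 and by 0.493 in M1-like against M2-like macrophages, and the 37 genes then had medians of -0.73 and -1.08, with 35 lower and 1 higher in each.

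**Figure D3:**
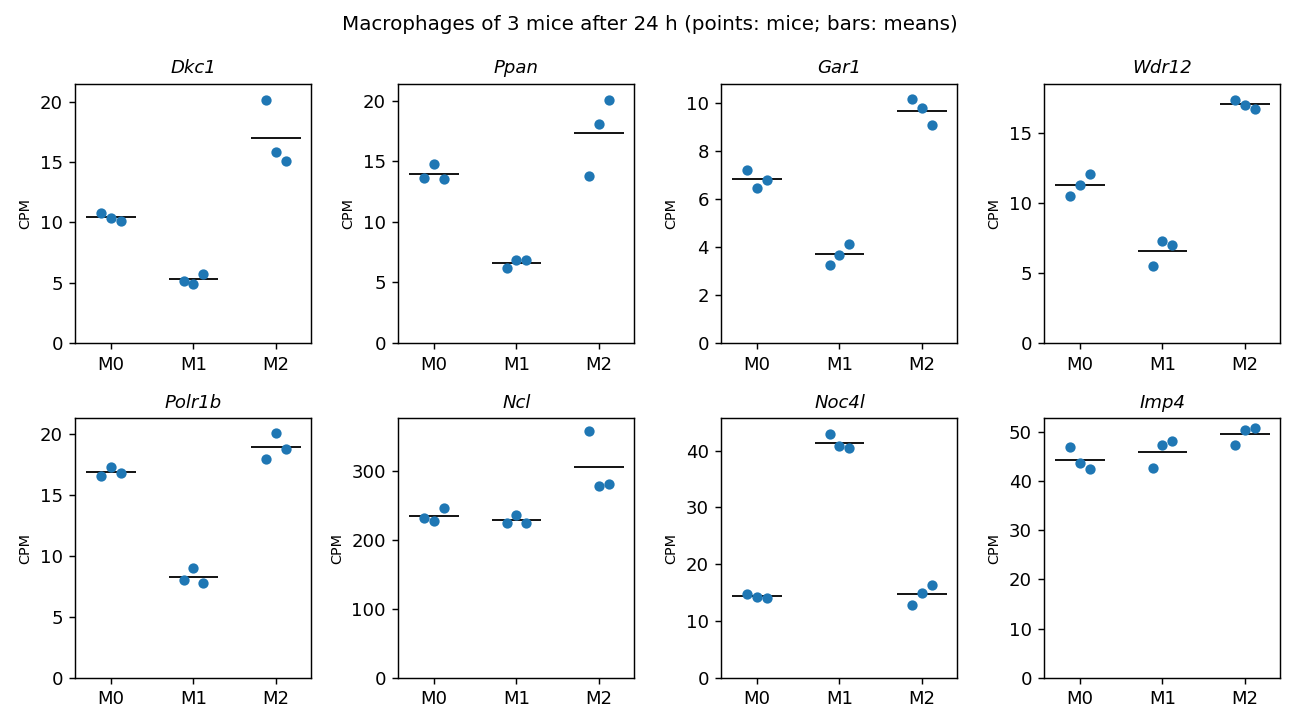
CPM of 8 ribosome biogenesis genes after 24 h in M0, M1-like and M2-like macrophages, 1 point for each of 3 mice and a bar at the mean. Dkc1, Ppan, Gar1, Wdr12 and Polr1b are lowest in M1-like cells, Ncl is highest in M2-like cells, Noc4l is highest in M1-like cells (40.5 to 42.8 CPM) and the groups of Imp4 overlap.

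In the later harvest the M1-like cells no longer had lower levels of most of these transcripts. M1-like mock against M2-like mock macrophages gave 17 higher genes, against 30.9% of all genes tested, and 2 lower genes, against 29.8%, with a median log2 fold change of 0.20 (0.03 for all genes tested). Untransfected cells gave 15 higher, against 31.3% of all genes, and 2 lower, against 30.2%, with a median of 0.21. With total counts as library sizes the median of all genes rose by 0.247 in mock and 0.223 in untransfected cells, the 37 genes had a median of 0.41 in both, and the splits were 27 higher and 0 lower in mock and 26 higher and 0 lower in untransfected cells.

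Noc4l was again the highest, at 42.4, 44.9 and 49.7 CPM in M1-like mock and at 15.1, 15.4 and 19.1 CPM in M2-like mock cells (log2 fold change 1.47, SE 0.09, adjusted p = 6.36e-15). Rrp12 was at 32.6, 36.8 and 32.7 CPM and at 15.9, 18.9 and 20.6 CPM (0.89, SE 0.11, adjusted p = 2.43e-08). Heatr1, a large protein of the small subunit processome, was at 69.8, 74.4 and 61.1 CPM and at 41.9, 47.0 and 34.0 CPM (0.74, SE 0.09, adjusted p = 3.32e-08). None of these groups overlapped. Wdr74 (0.74), Nop14 (0.69), Bysl (0.66), Rrp9 (0.65) and Polr1c (0.62) followed, so that 8 of the 11 small subunit factors were higher, compared with 5 of 9 large subunit factors, 0 of 3 PeBoW proteins and 0 of 4 box H/ACA proteins. The genes that overlap Rrp9, Bysl and Heatr1 on the opposite strand had values of 1.29 (Parp3), 1.51 (Ccnd3) and 0.25 (Lgals8, 875 bases shared) here, and their part in these values was not tested.

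Dkc1 (log2 fold change -0.37, SE 0.14, adjusted p = 0.0188) and Ncl (-0.30, SE 0.07, adjusted p = 4.70e-04) were lower in M1-like mock cells, at -0.15 and -0.08 and without a call when total counts were used as library sizes. Of the 33 genes with lower 24 h levels in M1-like cells, 14 were higher in the later mock comparison, 2 were lower and 17 were not called. The difference between the 24 h and the later values was not tested. Read type, sequencing site and culture time differ between the experiments, and the paper reports culture without IL-4 after transfection. These differences cannot be told apart. Marker sums also differed in the later harvest. The macrophage markers summed to 6448 to 7490 CPM in M1-like mock and to 14842 to 16103 CPM in M2-like mock cells. Of these markers Cd14 went the other way (212 to 287 and 101 to 104 CPM), and Itgam overlapped. The fibroblast and mesothelial markers summed to 17.1 to 33.6 CPM and 142.2 to 236.0 CPM in these groups. The part of these cell types in the result was not tested. Fewer cells of a type and less RNA per cell cannot be told apart in bulk samples. M2-like mock against M0 mock cells gave 0 calls in edgeR, with 3 lower and 3 higher genes at an unadjusted p under 0.05 and 1 lower and 1 higher in DESeq2, against 1.64% of all genes lower and 2.19% higher. Without M0 mock replicate 3 this comparison gave 1 call, and without M2-like mock replicate 3 it gave 2.

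**Figure D4:**
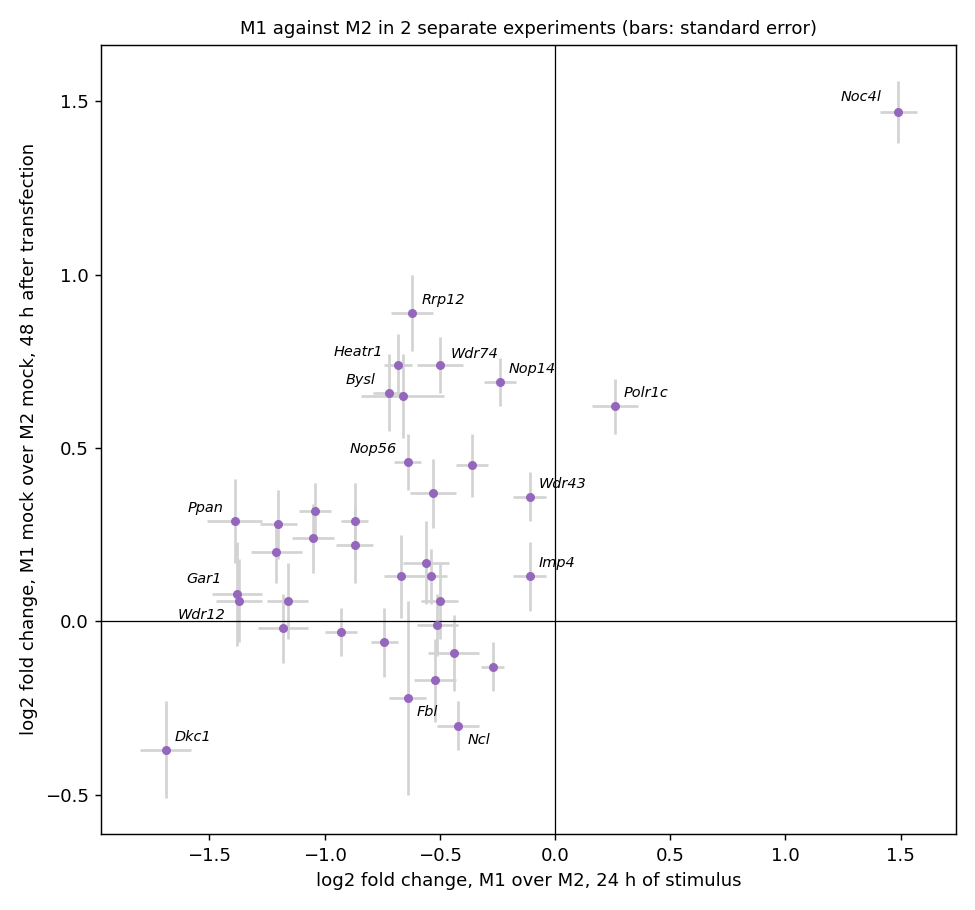
Log2 fold change of each of the 37 genes in M1-like over M2-like macrophages at 24 h (x axis) and in M1-like mock over M2-like mock macrophages in the later harvest (y axis), with bars for the standard error. Most genes lie left of 0 on the x axis and above 0 on the y axis, Noc4l is far right and high (1.49 and 1.47), and Dkc1 is lowest on both axes (-1.69 and -0.37).

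**Figure D5:**
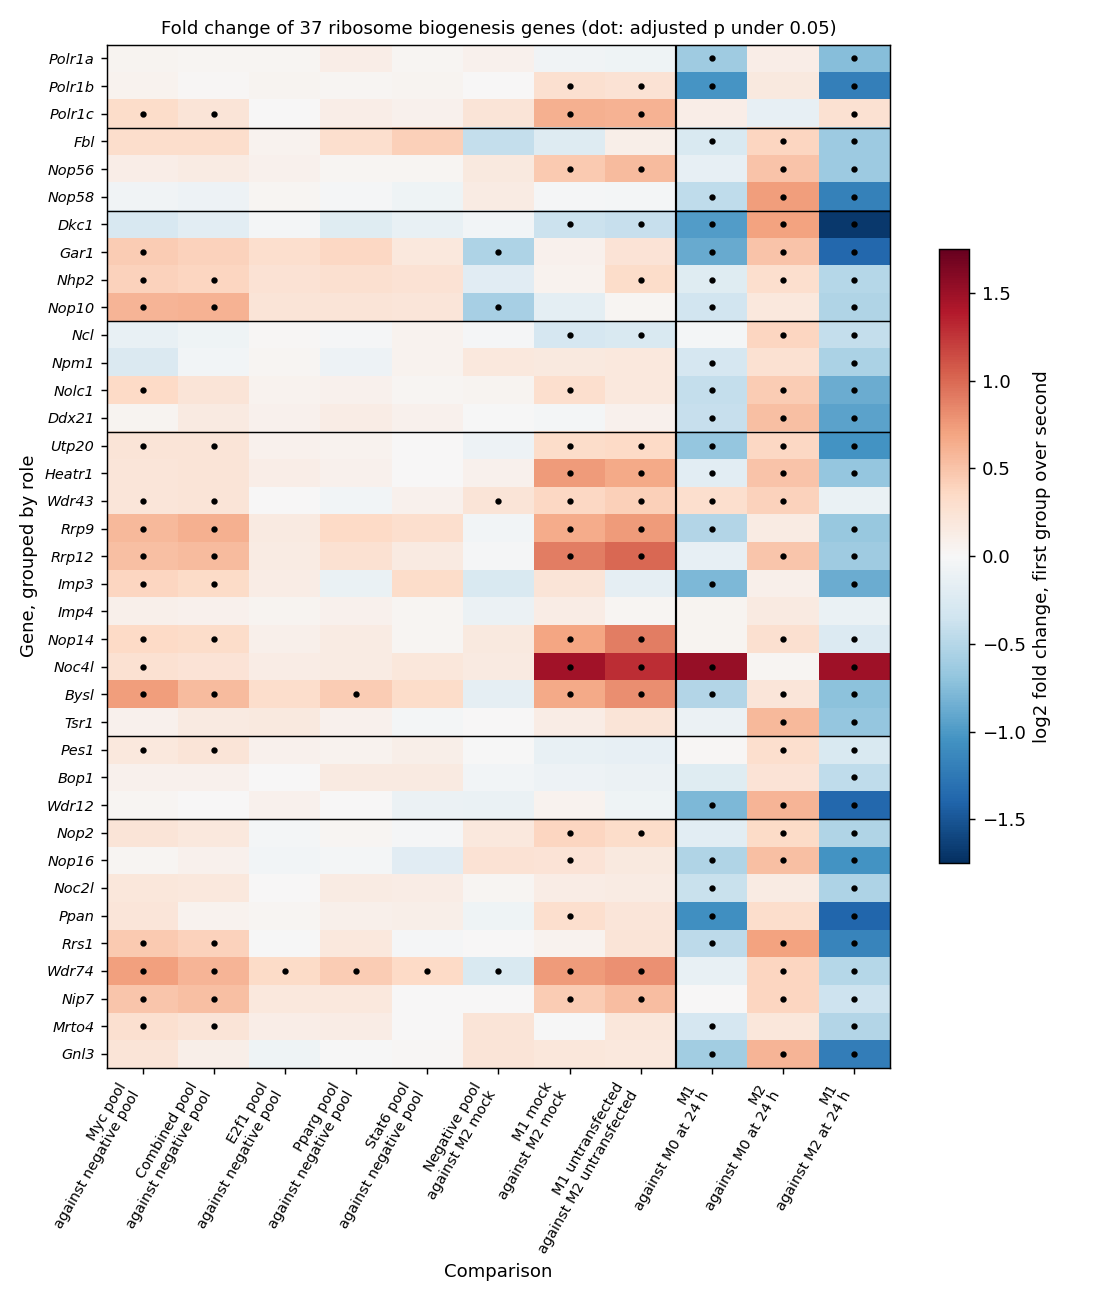
Log2 fold change of the 37 genes (rows, grouped by role from RNA polymerase I at the top to the large subunit factors at the bottom) in 11 comparisons (columns), red for higher and blue for lower in the group named first; dots mark an adjusted p under 0.05. The Myc and combined pools show 18 and 15 red calls and no blue ones, the M1-like against M2-like column at 24 h shows 33 blue calls, and the later M1-like columns show 17 and 15 red calls and 2 blue ones each.

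A wider list held 126 further assembly factors, polymerase I factors and exosome subunits. With the Myc pool 43 rose and 2 fell, against 13.9% and 15.6% of all genes, with a median log2 fold change of 0.18. With the combined pool 44 rose and 1 fell, against 12.5% and 13.9% of all genes, with a median of 0.16. The largest rises with the Myc pool were those of Zfp622 (0.60) and Rpf1 (0.58), which act in the large subunit, Ngdn (0.55), a small subunit factor, and Nle1 (0.54), a large subunit factor. The falls were those of Nsa2 (-0.36) and Rsl24d1 (-0.29), both of the large subunit. In M1-like against M2-like macrophages 70 of the 126 were lower and 16 higher at 24 h (38.1% and 34.6% of all genes), led by Rrp15 (-1.47) and Wdr46 (-1.41) on one side and Ddx24 (1.66) and Eif6 (1.32), which keeps the large subunit from joining, on the other. In the later mock comparison 4 were lower and 71 higher (29.8% and 30.9% of all genes). The largest fall there was that of Ubtf (-1.02), the polymerase I transcription factor UBF, and the largest rise that of Exosc1 (1.22), a subunit of the exosome.

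Structural components of the ribosome and cell cycle genes were compared as well. Of 79 cytosolic ribosomal protein genes 23 fell and 1 rose with the Myc pool, against 15.6% and 13.9% of all genes, with a median log2 fold change of -0.19. In the combined pool 17 fell and 2 rose, against 13.9% and 12.5% of all genes. Of 17 cell cycle genes 10 fell and 0 rose with the Myc pool (median -0.49), against 15.6% and 13.9% of all genes. With the combined pool 7 fell and 0 rose, against 13.9% and 12.5% of all genes. The 8 macrophage markers summed to 12511 to 13557 CPM with the negative pool and to 11705 to 11891 CPM with the Myc pool, the fibroblast and mesothelial markers to 233.1 to 338.4 CPM and 190 to 273.7 CPM, and their part in the values above was not tested. At 24 h in M1-like against M2-like macrophages 70 of the 79 ribosomal protein genes were lower and 2 higher, against 38.1% and 34.6% of all genes.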

How the data were processed

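RNA sequencing counts of 54 libraries were used, 18 of the polarization and 36 of the reprogramming experiment. The authors trimmed reads with Trimmomatic, mapped them to GRCm38/mm10 with TopHat2 and counted them per gene with featureCounts, and the deposited values are raw read counts. Tool versions, strand setting and multimapping are not given in the sources used here. Counts of the 2 technical replicates per mouse and stimulus were added. Low genes were removed by filterByExpr in edgeR (minimum count 10, minimum total 15), and samples were scaled by TMM and compared with edgeR's two-sided quasi-likelihood test, with 1 model for each experiment, and adjusted over all genes with the Benjamini-Hochberg method (called below 0.05). The SE is the log2 fold change divided by the root of F. RPKM used GENCODE M21 exon length.

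The 37 genes, the wider lists and the tests were chosen with earlier results of these data known. Genes were described in full if they were siRNA targets, among the 8 largest called changes of a main comparison, called against the majority, or the highest member of a role by RPKM. From the wider list, the 4 largest called rises and falls could be named. The rule for printed promoters, sites among the 8 largest rises with the Myc pool, selected none, so all 6 sites were printed after their values were seen. A search for member symbols with the ending -ps found 1 pseudogene in GENCODE, Mrto4-ps2. Values of Mrto4 are uncertain because reads could be split between them. Pseudogenes with other names were not searched, so other members, among them Npm1 and Fbl, may be uncertain in the same way.

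The polarization libraries of the same mouse number come from the same animal. Deviations from the condition means had a median correlation of 0.25 within a mouse and -0.135 between mice. The alternatives were DESeq2, RLE size factors, total counts as library sizes, an omitted filter, a stricter one (10 counts in all samples), a replicate block, only the compared groups, each replicate left out, separate technical replicates and M2-like mock cells as the control. The tests were tested on simulated data. R 4.3.3, edgeR 4.0.16, DESeq2 1.42.0, Python 3.11.15, pandas 2.3.3 and matplotlib 3.10.9 were used.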

Additional observations from a re-analysis of the deposited data

Results flagged for a closer look

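In 9 of the 37 genes every M1-like sample was below every M2-like sample at 24 h, and every M1-like sample was above every M2-like sample in the later harvest, with mock transfection and without. The difference between the times was not tested, and how many of all genes tested had this pattern was not counted. The log2 fold changes of M1-like over M2-like macrophages at 24 h, in later mock cells and in later untransfected cells were as follows. Among the small subunit factors, Utp20 had -1.04, 0.32 and 0.35, and Bysl had -0.72, 0.66 and 0.81. Heatr1 had -0.68, 0.74 and 0.66, Rrp12 had -0.62, 0.89 and 1.0, and Nop14 had -0.24, 0.69 and 0.89. Among the large subunit factors, Nop2 had -0.53, 0.37 and 0.32, Wdr74 had -0.50, 0.74 and 0.80, and Nip7 had -0.36, 0.45 and 0.54. The box C/D protein Nop56 had -0.64, 0.46 and 0.56.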

How the results depend on the processing

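Counts of called members are given here. The 95% interval of a single gene had a median width of 0.40 on the log2 scale for the Myc pool and of 0.33 at 24 h, and a gene without a call may still differ within its interval. Depth and replicate spread both enter this width and were not separated. With total counts as library sizes the combined pool gave 23 calls and M1-like against M2-like untransfected cells 26, and the median of all genes moved by 0.134 with the Myc pool, where the 37 genes then had a median of 0.35. Without a filter on low counts the E2f1 and Stat6 pools gave 0 calls, the negative pool against mock 2 and M0 mock against untransfected 1. With only the compared groups the E2f1 pool gave 2 and M0 mock 1. M2-like mock against M0 mock gave 2 calls with DESeq2, 1 with RLE size factors, 1 with at least 10 counts in every sample and 2 with the replicate block. Leaving out 1 replicate at a time gave 12 to 16 calls with the Myc pool, 10 to 14 with the combined pool, 0 to 0 with the E2f1 pool, 1 to 2 with Pparg, 0 to 1 with Stat6, 7 to 18 for the Myc pool against the other single pools, 1 to 4 for the negative pool, 2 to 3 for M0 mock, 0 to 2 for M2-like against M0 mock, 15 to 19 in M1-like against M2-like mock and 13 to 25 in untransfected cells, 21 to 25 in M1-like against M0 at 24 h, 19 to 30 in M2-like against M0 and 33 to 35 in M1-like against M2-like cells at 24 h. The cause of these changes was not tested, apart from the fewer samples of the fits without a replicate.

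Of the 18 genes called with the Myc pool 8 were called in all 14 alternatives, of the 15 with the combined pool 7 and of the 35 in M1-like against M2-like cells at 24 h 33, and 13 of the 19 in M1-like against M2-like mock cells were called in all 13. Reversed values were those of Gar1 with the Myc pool against M2-like mock cells (-0.10), and with total counts as library sizes of Wdr43 in M1-like against M0 cells at 24 h (-0.14) and of Polr1c in M1-like against M2-like cells at 24 h (-0.18).

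The replicate numbers of the reprogramming samples are only shared numbers in the labels. Samples of the same number had a median correlation of deviations of 0.183 (lowest -0.249), and 34 of 36 samples correlated best with their own number, a hint from the data and not from the design. With a replicate block the Myc pool gave 21 calls and the combined pool 18, and the counts of the 3 comparisons at 24 h, where the block is the mouse, were 25, 24 and 35 as without it.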
